A study of Mus musculus with 118 samples.

Results

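*Malat1*, *Miat*, *Meg3*, *Rian*, *Mirg* and *Snhg11* are long noncoding RNAs that neurons carry at levels from the very highest to barely detected. They are 6 of the 23998 gene symbols in the count table. They were chosen by name, with no measured value in the rule, but with earlier results of these data known. Their reads were followed in SOM+ interneurons of primary visual cortex (V1) and primary somatosensory cortex (S1), in layer 4 (L4) and layer 5 (L5). The cells came from adult male and female SOM-Cre/Ai9 mice, in which cells that express or once expressed somatostatin turn on the red fluorescent protein tdTomato, so a labelled cell need not make somatostatin when it is recorded. Every group carries this same genotype, and no group received a treatment. The RNA was collected by Patch-seq, in which the pipette that records a neuron electrically afterwards takes up its contents, and it was amplified by a variant of Smart-seq2, which adds no molecular identifiers. In L4, 42 of 44 V1 cells and 34 of 39 S1 cells were kept, and in L5 17 of 19 V1 cells and 16 of 16 S1 cells. A kept cell had at least 1500 genes with a count above 0, a *Slc17a7* count no larger than the sum of *Gad1* and *Gad2*, and at least 1 *Sst* count.

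Long noncoding RNAs are transcribed and often spliced like messenger RNAs but are not read into protein, and many of them stay in the nucleus. *Malat1* gathers at nuclear speckles, the depots of splicing factors, and its mature transcript has no poly(A) tail. Its end is protected by a triple helix of U-rich stretches wrapped around an A-rich tract. *Miat*, also called Gomafu, forms its own granules in the nuclei of neurons and carries repeats of the sequence bound by a splicing factor. *Meg3*, *Rian* and *Mirg* come from the imprinted Dlk1-Dio3 region, where they are transcribed from the maternal chromosome, while *Dlk1*, *Rtl1* and *Dio3* are read from the paternal one. *Meg3* has been tied to Polycomb silencing, *Rian* holds small nucleolar RNAs (snoRNAs) in its introns, and *Mirg* is the host of a large cluster of microRNAs. *Snhg11* is a host gene of snoRNAs that is rich in neurons.

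On GRCm38, the same assembly as the mm10 build of the files, all 6 symbols matched 1 gene of GENCODE M21. *Malat1* lies on the minus strand of chromosome 19 at chr19:5795690-5802672, and *Miat* on the minus strand of chromosome 5 at chr5:112213228-112229395. The imprinted genes follow each other on the plus strand of chromosome 12, with *Meg3* at chr12:109541001-109571726, *Rian* at chr12:109603940-109661716 and *Mirg* at chr12:109729764-109749460. From the start of *Meg3* to the end of *Mirg* the region spans 208460 bases, and RefSeq places 54 microRNA hairpins on its plus strand. Within the genes themselves, *Mirg* holds 14 of these hairpins, *Rian* 3 and *Meg3* 1, and *Rian* also holds 13 annotated snoRNA genes. *Snhg11* lies on the plus strand of chromosome 2 at chr2:158375638-158386145 and holds 2 snoRNA genes, and GENCODE M21 types it as protein coding although it is known as a noncoding host gene. Annotated genes of over 200 bases on the opposite strand overlap *Malat1* (*Gm37376*), *Miat* (*Gm26953*) and *Meg3* (*Gm26906*). *Mirg* is overlapped there by 1 gene, which is not longer than 200 bases. Smart-seq2 libraries do not mark the strand, so reads of such a gene and of its partner cannot be told apart.

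Of the 6 RNAs, *Malat1* and *Miat* are shown by the elements they are known for, the triple helix and the repeats. The first line holds a stretch near the 3′ end of the single-exon transcript of *Malat1* (chr19:5795970-5796074, minus strand, exonic), with the 2 U-rich stretches and the run of 12 A in capitals. The second holds 81 bases of the longest annotated *Miat* transcript (chr5:112216742-112216822, minus strand, exonic), with 3 of its 6 copies of TACTAAC in capitals. Letters are written as DNA, 5′ to 3′.
Malat1: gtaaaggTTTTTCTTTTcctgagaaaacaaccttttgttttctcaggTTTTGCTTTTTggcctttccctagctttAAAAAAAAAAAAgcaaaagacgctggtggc
Miat: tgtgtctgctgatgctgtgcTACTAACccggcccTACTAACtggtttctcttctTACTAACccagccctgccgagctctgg
The 6 copies of TACTAAC in *Miat* lie within 689 bases of the 9163-base transcript. The longest annotated transcripts of the other 5 genes hold 0 copies. Among 68537 GENCODE transcripts of at least 1000 bases, 6.35% hold TACTAAC once or more on the transcribed strand, and 5 transcripts of 4 genes hold it at least 6 times. A run of at least 12 A, leaving out the last 50 bases, is in 6.36% of these transcripts. It is not particular to *Malat1* among the 6, since the longest transcripts of *Meg3* and *Rian* hold runs of 16 and 15 A.

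The promoters of *Meg3*, *Snhg11* and *Malat1* are shown because these 3 RNAs rose and fell together across cells, as described below. Each window holds 250 bases before and 50 bases after the RefSeq start on GRCm38, 5′ to 3′ on the strand of the gene. The positions are chr12:109540746-109541045 for *Meg3* (plus strand), chr2:158375463-158375762 for *Snhg11* (plus strand) and chr19:5802623-5802922 for *Malat1* (minus strand). Capitals mark matches on either strand to TATAAA (the TATA box), to CCAAT (the CCAAT box), to TGACGTCA (the cyclic AMP response element), to its short form TGACG and to GGGCGG (the GC box).
Meg3: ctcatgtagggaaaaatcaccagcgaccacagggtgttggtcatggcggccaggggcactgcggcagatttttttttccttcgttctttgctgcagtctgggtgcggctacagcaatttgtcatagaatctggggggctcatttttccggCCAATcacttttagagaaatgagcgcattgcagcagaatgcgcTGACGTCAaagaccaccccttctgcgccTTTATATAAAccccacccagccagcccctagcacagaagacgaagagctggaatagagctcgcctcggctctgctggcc
Snhg11: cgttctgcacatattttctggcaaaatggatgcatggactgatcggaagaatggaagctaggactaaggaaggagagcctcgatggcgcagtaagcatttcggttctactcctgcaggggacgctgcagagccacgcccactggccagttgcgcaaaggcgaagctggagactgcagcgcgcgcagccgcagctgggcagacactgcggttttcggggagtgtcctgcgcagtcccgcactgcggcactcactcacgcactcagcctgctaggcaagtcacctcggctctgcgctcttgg
Malat1: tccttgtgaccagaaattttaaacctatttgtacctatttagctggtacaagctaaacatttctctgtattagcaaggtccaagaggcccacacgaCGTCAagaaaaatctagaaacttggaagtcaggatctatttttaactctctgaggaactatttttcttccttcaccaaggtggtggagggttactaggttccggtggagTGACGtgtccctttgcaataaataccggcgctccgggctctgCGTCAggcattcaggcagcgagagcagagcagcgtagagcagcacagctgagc
The *Meg3* window has 2 overlapping matches to TATAAA, 1 to CCAAT and 1 to TGACGTCA, which itself contains TGACG on each strand. The *Malat1* window has 3 matches to TGACG and 0 to the longer form. The *Snhg11* window has 0 matches to any of these letters. Of all 32851 promoter windows in the table, 13.6% hold TATAAA, 37.4% CCAAT, 1.79% TGACGTCA, 20.8% TGACG and 35.7% GGGCGG. No motif of this set is in all 3 windows.

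No label names an animal. Each of the 4 groups therefore counts as 1 sample, and the cells were not tested against each other. Dates in the labels were read as recording days, of which there were 9, although the labels do not say what the dates mark. The days were split here into 2 series, an earlier and a later one, which the labels do not name. The L5 cells all belong to the first of these. Per kept cell, 97904 to 3295232 reads were counted on genes, with a median of 1111833, and the number of detected genes from 1978 to 9200. *Sst*, *Gad1*, *Gad2*, *Slc32a1* and *Lhx6* together, in CPM (counts per 1000000 counts on genes), had medians of 3993 and 4232 in L4 of V1 and S1, and of 5340 and 3896 in L5. The excitatory neuron, astrocyte and endothelial marker lists had medians of at most 4.56 CPM in each group. Single cells were higher, with a highest V1 L4 cell at 3607 CPM for the astrocyte list and at 338 CPM for the excitatory list. The endothelial list stayed below both of these levels in every cell. The microglia list had medians of 5.28 and 20.6 CPM in L4 of V1 and S1 and of 6.71 and 0 in L5, with a highest cell at 2021 CPM. The oligodendrocyte list had medians of 70.0 and 628 CPM in L4 of V1 and S1 and of 111.2 and 312 CPM in L5, and its highest cell reached 9510 CPM. In *Meg3* and *Snhg11*, 4 cells stand apart. They are described below, and the main correlations and differences are given with and without them.

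*Malat1*, *Snhg11* and *Meg3* were among the most abundant transcripts of nearly every cell. By mean CPM over the kept cells they took places 2, 3 and 4 of all genes, after the ribosomal RNA precursor *Rn45s*. Ranked within each cell, *Malat1* had a median place of 2, *Snhg11* of 3 and *Meg3* of 6, and they were among the 10 highest genes in all but 7, 15 and 37 of the kept cells. *Rian*, with a median place of 1503, *Miat*, with 4521, and *Mirg*, with 5043, were far down the list. By RPKM, which takes out the length of the transcript, the median places were 3 for *Malat1*, 10 for *Snhg11* and 84 for *Meg3*, which were among the 10 highest genes in 80, 55 and 5 cells. *Rian*, *Mirg* and *Miat* had median places of 2135, 4781 and 5244 on that scale, and none of them was among the 10 highest genes of any cell on either scale. Per length, as deposited RPKM, the median levels were 2907 for *Malat1*, 1482 for *Snhg11*, 451 for *Meg3*, 46.2 for *Rian*, 6.46 for *Mirg* and 1.36 for *Miat*. Each step of this order was kept within most cells. *Malat1* was above *Snhg11* in 92 cells and below it in 17, and *Rian* was above *Mirg* in 92. *Snhg11* was below *Meg3* in 3 cells, and *Meg3* below *Rian* in 2. *Mirg* and *Miat* were the exception, with *Mirg* higher in 56 cells and *Miat* in 40, so these neighbours did not separate.

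The speckle RNA *Malat1* was at 4474 CPM in the lowest, 22654 in the median and 70772 in the highest V1 L4 cell. In S1 L4 the lowest, median and highest cells were at 281, 23624 and 72752 CPM. V1 L5 cells reached from 1.29 to 47776 CPM with a median of 8659, and S1 L5 cells from 1225 to 53926 CPM with a median of 17121. V1 L5 had the lowest median of the 4 groups, and the ranges of all groups overlapped.

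*Miat*, the other nuclear RNA with its own granules, was missing from many cells. It had a read in 28 of 42 V1 L4 cells (66.7%, 95% Clopper-Pearson interval 50.5 to 80.4), 24 of 34 S1 L4 cells (70.6%, 52.5 to 84.9), 9 of 17 V1 L5 cells (52.9%, 27.8 to 77.0) and 14 of 16 S1 L5 cells (87.5%, 61.7 to 98.4). After 250000 reads were drawn from each cell, for which 2 cells of V1 L5 and 1 of S1 L5 were not deep enough, the numbers were 25 of 42, 24 of 34, 8 of 15 and 11 of 15. The intervals cover counting error only and treat cells as independent, which cells of 1 animal need not be, so no group is set apart by them. The median level in L4 was 39.2 CPM in S1 and 6.11 in V1, and in L5 it was 46.7 CPM in S1 and 3.57 in V1. The highest cells were at 493 and 408 CPM in L4 and at 196 and 217 CPM in L5. S1 cells thus had the higher median in L4 and in L5, with cells at 0 in every group.

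Of the imprinted cluster, *Meg3* was the most abundant. It ranged in V1 L4 from 1402 to 11509 CPM with a median of 5042, and in S1 L5 from 1802 to 10468 with a median of 4788. In S1 L4 the range was 1.11 to 12181 CPM with a median of 4248, and in V1 L5 it was 2.37 to 15321 with a median of 3045. The low ends of S1 L4 and V1 L5 are the cells that stand apart. *Rian* had a median of 203 CPM in V1 L4 and 131.6 in S1 L4, with 163.98 and 175.04 CPM in the L5 cells of V1 and S1, and 2 kept cells had no read. *Mirg* had a read in 33 of 42 and 22 of 34 L4 cells of V1 and S1, with medians of 9.29 and 7.55 CPM, and in 11 of 17 and 12 of 16 L5 cells, with medians of 2.05 and 9.87 CPM. Over all kept cells the 3 neighbours on chromosome 12 had 593866, 24282 and 2437 counts, so *Meg3* had 4247 CPM when cells were pooled, *Rian* 173.6 and *Mirg* 17.4.

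Other genes of the same region were low or missing. *Dlk1*, the gene of a Notch-like ligand, and *Dio3os*, a noncoding transcript beside *Dio3*, had 0 counts in the kept cells, and *Dio3*, which inactivates thyroid hormone, had 2 counts in 1 cell. *Rtl1*, the retrotransposon-derived gene of the paternal chromosome, had a read in 64 cells with a median of 5.92 CPM, and since strand is not known some of its reads may belong to the maternal antisense transcript. *Begain*, at one flank, had a read in 61 cells with a median of 4.18 CPM, and *Wdr25* in 11 cells. *Wars*, a tRNA synthetase gene outside the imprinted core, was at a median of 95.4 CPM, and *Ppp2r5c*, a phosphatase subunit gene, at 70.8 CPM. Across cells *Rtl1* had r = 0.22 with *Meg3*, 0.07 with *Rian* and 0.17 with *Mirg*, and the r of the other 3 measured neighbours (*Begain*, *Wars* and *Ppp2r5c*) with these RNAs lay between -0.22 and 0.14.

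The snoRNA host *Snhg11* was at 1882, 9119 and 29720 CPM in the lowest, median and highest V1 L4 cell, and at 3418, 8273 and 28716 CPM in S1 L5. In S1 L4 it ranged from 1.01 to 22619 CPM with a median of 8698. V1 L5 had 1 cell without a read, a median of 5969 CPM and a highest cell at 21021. As for *Malat1* and *Meg3*, V1 L5 had the lowest median and the groups overlapped. *Snhg11* was far above the other snoRNA hosts on the list, of which *Gas5* was the highest at a mean of 669 CPM and *Snhg1* the next at 65.8.

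**Figure D1:**
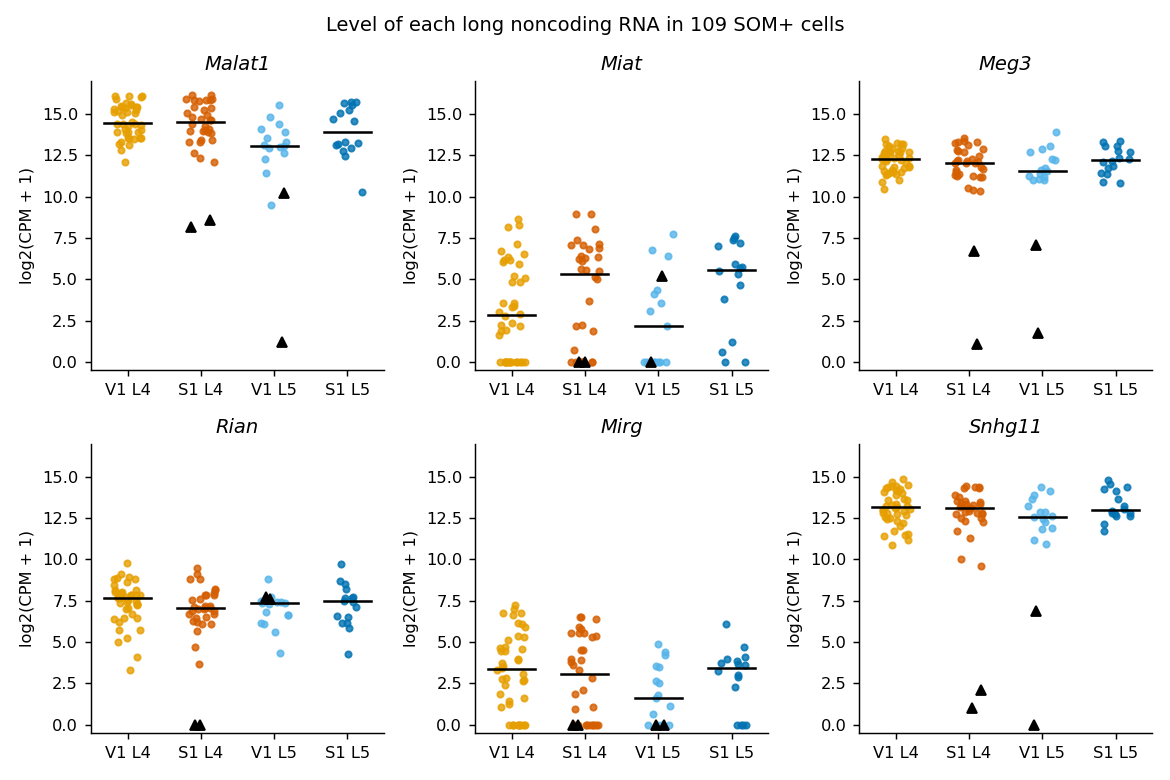
Each panel plots 1 RNA on the log2(CPM + 1) axis, with 1 point per kept cell by area and layer, black lines at the group medians and black triangles for the 4 cells under 200 CPM of both *Meg3* and *Snhg11*. For *Malat1*, *Meg3* and *Snhg11* the cells lie high on the axis with the triangles beneath them, except that 1 V1 L5 triangle for *Malat1* lies above 1 other cell. *Miat* and *Mirg* spread from 0 upwards in every group.

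Together the 6 RNAs took a median of 3.73% of the counts of a cell, with a range from 0.0386 to 10.7%. In L4 the median share was 4.33% in V1 and 3.79% in S1, and in L5 it was 1.81% in V1 and 4.66% in S1. *Malat1* alone made up 62.4% of their pooled reads, and with *Snhg11* and *Meg3* it made up 99.3%, so the summed share says little about the other 3 RNAs. For comparison, *Rn45s* took 5.09% of the pooled counts.

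In 4 kept cells there were almost no *Meg3* and *Snhg11* reads. Their *Meg3* levels were 1.11 and 105.4 CPM in S1 L4 cells 32 and 34, and 2.37 and 135.2 CPM in V1 L5 cells 3 and 7, and the lowest of the other cells was at 1301 CPM. Their *Snhg11* levels were 3.34, 1.01, 0 and 117.14 CPM in the same order, and the next lowest cell was at 786 CPM. *Malat1* was at 382, 281, 1186 and 1.29 CPM, where the other cells had a median of 21286 and a lowest value of 714 CPM. *Rian* was at 0 in both S1 L4 cells and at 211 and 196 CPM in both V1 L5 cells, beside a median of 163.98 CPM in the other cells. The S1 L4 cells are of series 2 and the V1 L5 cells of series 1. Area, layer and series can therefore not be told apart in this split, which rests on 4 cells. *Mirg* was at 0 in all 4, and *Miat* had reads in V1 L5 cell 7, at 35.4 CPM.

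*Sst*, *Gad1* and *Snap25*, chosen after their values were seen, were above the median of the other cells in each of these cells. *Gad2*, *Slc32a1* and *Lhx6*, also on the SOM marker list, were not looked at singly here. Of the 5 genes of that list, 2 had r above 0 with *Meg3* over the kept cells, and 0 without these 4 cells. The whole list is therefore not shown to be high in them. At least 1 *Sst* count was a condition for being kept, so its presence here was set in advance. *Sst* was at 1223, 2246, 3910 and 11525 CPM, beside a median of 1182 elsewhere, and *Gad1* at 2503, 1659, 3205 and 1597 CPM, beside 1447. *Snap25*, a synaptic SNARE protein gene, was at 5440, 10877, 7645 and 8076 CPM, beside 4437, and *Rn45s* lay between 19874 and 88113 CPM. *Macf1*, a giant cytoskeletal linker gene whose level was among those most like *Meg3*, was at 0 in all 4 cells and above 0 in all others. *Kcnq1ot1*, another imprinted nuclear RNA, was at 0 in all 4 cells and in 8 of the others. The glutamate receptor gene *Gria2* was at 1.11, 524, 0 and 113.3 CPM, where the other cells had a median of 996. *Macf1* and *Gria2* were looked at for their high r with *Meg3* and *Snhg11*, which these 4 cells raise. Their low levels here are therefore not a separate result. Their total counts were 899077, 987020, 421469 and 1553715, and they had 2792, 2881, 1978 and 5206 detected genes, which puts 3 of them at the bottom of all kept cells. They came from recording days 8, 9, 3 and 4. The labels say that cytosol was taken from the cells, and whether a nucleus entered the pipette is not given in the sources used here, so its part in these levels was not tested.

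*Meg3* and *Snhg11* followed each other more closely than they followed any other gene. Across the kept cells (42, 34, 17 and 16 of the groups) their log2(CPM + 1) had Pearson r = 0.93 and Spearman rho = 0.83, and each was the gene most like the other among the 9993 genes that reached 32 counts in 10 or more cells. Without the 4 cells r was 0.81, and each remained first for the other. Without these cells r was 0.75 and 0.80 within the L4 groups of V1 and S1 (n = 42 and 32) and 0.92 and 0.88 within the L5 groups (n = 15 and 16). Within the 8 recording days with at least 6 cells it lay between 0.76 and 0.99 over all kept cells. *Malat1* had r = 0.70 with both, and 0.64 with *Meg3* and 0.62 with *Snhg11* without the 4 cells. All values of a cell share its depth and its total, so these correlations are descriptions, and cells of a day are not independent.

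The RNAs with the highest correlations lie on different chromosomes. The 3 pairs of *Malat1*, *Meg3* and *Snhg11*, which lie on chromosomes 19, 12 and 2, had r from 0.70 to 0.93. The pairs within the imprinted cluster had r = 0.41 for *Meg3* and *Rian*, 0.32 for *Meg3* and *Mirg* and 0.07 for *Rian* and *Mirg*. Without the 4 cells these were 0.17, 0.27 and -0.04. The 12 of the 15 pairs that are not among *Malat1*, *Meg3* and *Snhg11* include these 3 pairs of the imprinted cluster. Their median r was 0.27, and 0.17 without the 4 cells. *Rian*, *Mirg* and *Miat* have fewer reads, and how far this lowered their correlations was not tested.

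**Figure D2:**
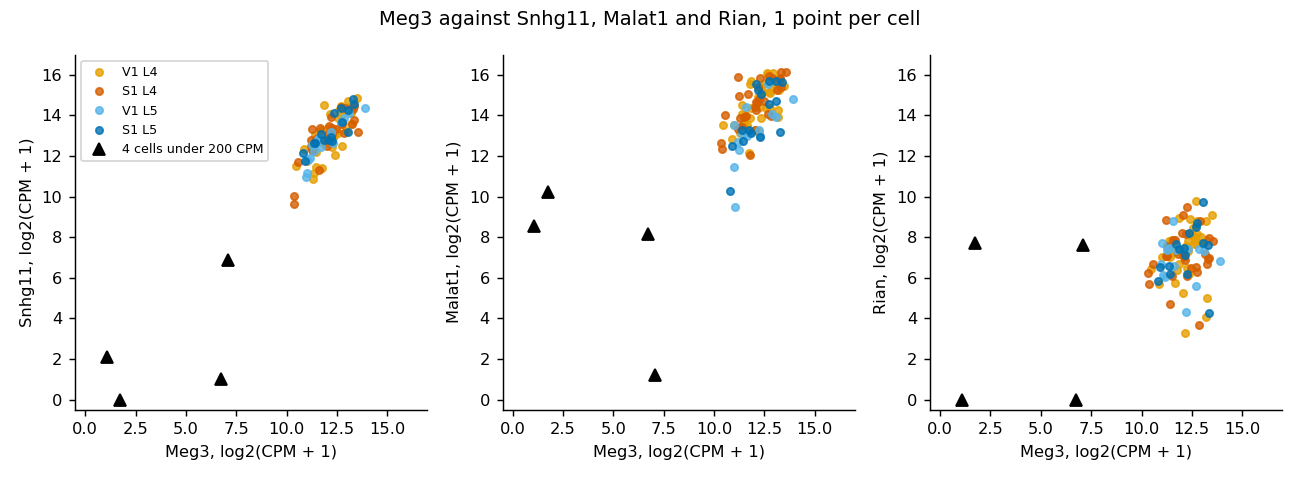
Each panel plots *Snhg11*, *Malat1* or *Rian* (vertical axis) against *Meg3* (horizontal axis), both in log2(CPM + 1), with 1 point per cell coloured by area and layer and triangles for the 4 low cells. *Snhg11* follows *Meg3* along a line within the main cloud too (r = 0.81 without the triangles), while *Rian* forms a round cloud (r = 0.17 without them).

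**Figure D3:**
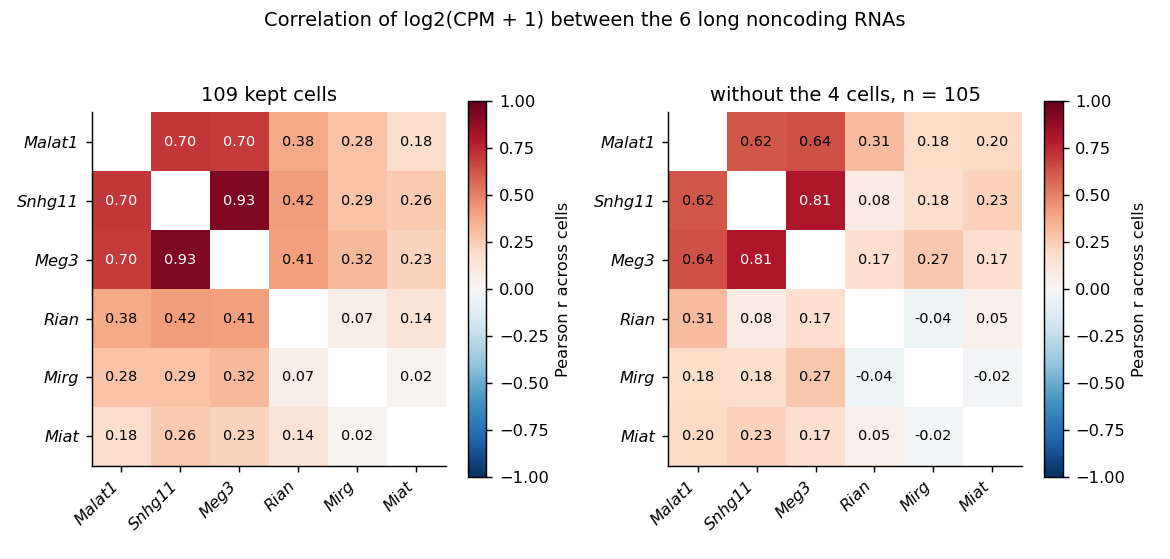
Pearson r of log2(CPM + 1) between each pair of the 6 RNAs, over all kept cells on the left and without the 4 low cells on the right, with colour from -1 to 1. The block of *Malat1*, *Snhg11* and *Meg3* has the highest values in both, with a lowest r of 0.70 on the left and 0.62 on the right.

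The genes most like each RNA were found by the highest r over the kept cells. After *Snhg11*, *Meg3* was followed by *Gria2* (r = 0.83) and *Macf1* (0.76), and *Snhg11* after *Meg3* by the same 2 genes (0.79 and 0.75). Without the 4 cells these fell to 0.49 and 0.45 for *Meg3* and to 0.61 and 0.36 for *Snhg11*. *Malat1* was closest to *Snhg11*, *Macf1* and *Meg3*, all at 0.70, and without the 4 cells *Macf1* fell to 0.43. The gene farthest from it was *Snap25*, with r = -0.59 (-0.73 without the 4 cells) and rho = -0.79. *Rian* was closest to the calcium release channel gene *Ryr2* (0.51), the coactivator gene *Ncoa3* (0.49) and *Macf1* (0.47), and without the 4 cells these were 0.37, 0.33 and 0.32. For *Mirg* the nearest were *Usp36* (0.42), *Ypel4* (0.38) and *Plcxd1* (0.38), and for *Miat* *Bnip2* (0.38), *Brinp2* (0.37) and *Wdfy3* (0.36). For *Mirg* and *Miat* such values are weak, and they are the highest of 9992.

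Lists of genes around these RNAs were read in the same way, with and without the 4 low cells. Leaving these cells out also lowered the median r over all genes, so each list is to be read beside that median. Of 19 nuclear speckle and splicing genes, among them *Srsf7* and *Srrm2*, 17 had r above 0 with *Meg3* (median 0.29), 17 with *Snhg11* (0.34) and 14 with *Malat1* (0.16). Without the 4 cells these were 11 (median 0.05), 10 (0.06) and 11 (0.06). The median r over all 9992 genes was 0.04 for *Meg3* and for *Snhg11* and -0.03 for *Malat1*, and all 3 medians were -0.13 without the 4 cells. Of 40 cytosolic ribosomal protein genes, led by *Rpl4* and *Rps3*, 6 had r above 0 with *Meg3* (median -0.19), 5 with *Snhg11* (-0.18) and 7 with *Malat1* (-0.12). The medians of this list moved little without the 4 cells, with 5 genes (median -0.18), 4 (-0.19) and 12 (-0.10). The medians over all genes did fall, to -0.13, so this list came closer to them. The 9 immediate early genes, led by *Fos* and *Egr1*, which neurons switch on when active, had medians of -0.05, -0.07 and -0.10 with *Meg3*, *Snhg11* and *Malat1*, and of -0.34, -0.31 and -0.20 without the 4 cells. Of 9 measured Polycomb repressive complex 2 genes, led by *Rbbp7* and *Rbbp4*, 7 had r above 0 with *Meg3* (median 0.12), and 5 without the 4 cells (median 0.01). Of 8 other snoRNA hosts, 8 had r above 0 with *Meg3*, 7 with *Snhg11* and 5 with *Malat1*, and without the 4 cells these were 5, 3 and 5. The 14 other long noncoding RNAs, led by *Kcnq1ot1* and *2900097C17Rik*, had medians between -0.03 and 0.05 with each of the 6, and between -0.16 and 0.03 without the 4 cells. The 10 nuclear pore and lamina genes, led by *Matr3* and *Lmna*, had medians between 0.01 and 0.20, and between -0.04 and 0.02 without them. The 21 other imprinted genes, led by *Nap1l5* and *Gnas*, had a median r of 0.06 with *Meg3*, and of -0.13 without the 4 cells.

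Cells in which more genes were detected gave a smaller share of their reads to *Malat1*, *Meg3* and *Snhg11*. Spearman rho between level and number of detected genes was -0.44 for *Malat1*, -0.43 for *Meg3* and -0.41 for *Snhg11* over the kept cells. Over all 9993 genes the median rho was 0.23, and at most 0.05% of genes had a lower rho than these 3. Pearson r was -0.10, 0.12 and 0.15, and without the 4 cells, which join few genes with almost none of these RNAs, it was -0.54, -0.57 and -0.51. The sign of Pearson r for *Meg3* and *Snhg11* therefore rests on the 4 cells. Without them r was below 0 for each of the 3 RNAs in all 4 groups, from -0.26 to -0.77, and in 8 of 8 recording days. *Miat* (rho 0.15) and *Mirg* (0.02) did not fall with detected genes, and *Rian* had rho = -0.21.

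Depth and the number of genes are tied, and this share is computed from the same reads. The number of detected genes had r = 0.67 with the log10 of the total count. Detected genes were therefore also counted among 250000 reads per cell drawn from all other genes, for which 3 cells were too shallow. The Spearman correlation was then -0.42 for *Malat1*, -0.38 for *Meg3* and -0.37 for *Snhg11*. Among the 17 other genes of the 20 with the highest mean CPM, 3 had rho below 0 with detected genes and the median was 0.27. *Rn45s*, which is transcribed in the nucleolus, had the lowest value of these 17, with rho = -0.55, and *Malat1* and *Rn45s* had r = 0.45 with each other on the log2 scale. The summed share of the 6 RNAs had r = -0.44 with detected genes.

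**Figure D4:**
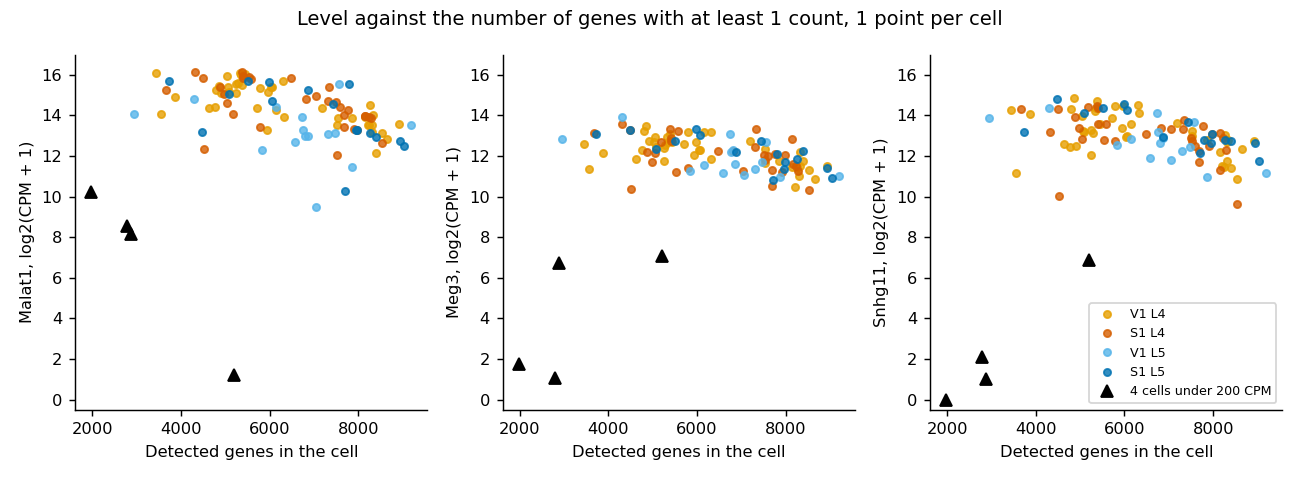
Each panel plots *Malat1*, *Meg3* or *Snhg11* in log2(CPM + 1) against the number of genes with at least 1 count in the cell, with 1 point per cell coloured by area and layer and triangles for the 4 low cells. Outside the triangles the levels fall as more genes are detected, with r of -0.54, -0.57 and -0.51.

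Between S1 and V1 in L4 the 6 RNAs differed by less than the spread over recording days. Differences are of mean log2(CPM + 1), S1 minus V1, and a gene was counted when its difference was at least 1 in either direction. Of the 6 RNAs 0 were past this size, beside 15.8% of 9201 genes, of which 8.12% were higher and 7.66% lower. Also 0 of the 6 had 1 sign in each of the 5 days with at least 2 cells of each area, beside 6.76% of all genes. *Snhg11* differed by -0.83 (SD over 5 recording days 2.63), *Rian* by -0.65 (SD 1.50), *Meg3* by -0.62 (2.33), *Mirg* by -0.47 (1.58) and *Malat1* by -0.40 (1.80). Without the 2 low S1 L4 cells the differences of these 5 RNAs lay between -0.29 and -0.04. *Miat* was higher in S1 by 0.92 (SD 2.45, above 0 in 3 of 5 days), and by 1.17 without the low cells, still within its spread.

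In L5, S1 cells had more *Miat* than V1 cells in each recording day. Its mean log2(CPM + 1) was 4.70 in S1 and 2.56 in V1, a difference of 2.14 (SD over 4 days 1.13), with day values from 1.44 to 3.91. On day 3 the medians ran the other way, at 52.1 CPM in S1 and 83.5 in V1, so there the mean rests on V1 L5 cell 3, at 0, which is a low cell. Without it the difference of day 3 was 0.22, with a mean of 6.34 in S1 and 6.12 in V1. Of the 5 RNAs past the filter on counts, 4 were at least 1 higher in S1, beside 23.6% of 6402 genes, and the median difference of all genes was 0.24. The others were *Malat1*, at 1.67 (SD 2.49), *Snhg11*, at 1.66 (1.74), and *Meg3*, at 1.16 (1.38). *Malat1*, *Snhg11* and *Meg3* were higher in S1 in 4 of 4 days, and 15.8% of all genes had 1 sign in every day. Without the 2 low V1 L5 cells *Meg3* was higher in 3 of 4 days, and these 3 differences were 0.79, 0.57 and 0.28. *Miat* was then the 1 RNA of the 5 past the size, at 2.15 (SD 1.76), beside 17.8% of 6402 genes. That count is close to the share over all genes. *Rian* differed by 0.27 (SD 0.69), and *Mirg*, which had too few counts for the filter, by 1.01 (SD 1.22).

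Between the layers of V1, L5 cells had less *Malat1* than L4 cells of the same recording series. The mean log2(CPM + 1) was 12.30 in 17 L5 cells and 14.34 in 21 L4 cells, a difference of -2.04, and the median level was 8659 CPM beside 21286. Without the 2 low V1 L5 cells it was -1.16. Only days 3 and 5 held at least 2 cells of each layer, and there the differences were -1.16 and 0.37, so this difference did not hold within days. *Meg3* was lower in L5 on both days, as 50.7% of all genes had 1 sign on both, but on day 3 this rests on V1 L5 cell 3, without which the difference of that day was 0.06 in place of -2.07. Within days and without the low cells, *Malat1* differed by 0.013 and *Snhg11* by 0.30 on average. *Snhg11* differed by -1.33 and *Meg3* by -1.29, and by -0.24 and -0.41 without the low cells. Of the 5 RNAs past the filter 3 were at least 1 lower in L5, beside 15.6% of 6696 genes. Without the low cells 1 was, beside 11.8%. *Rian* differed by -0.43 and *Miat* by -0.38. *Mirg*, under the filter, was at -1.63 and at -1.39 without the low cells.

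Between the layers of S1, the 6 RNAs differed by less than 1. Of the 6 RNAs 0 were at least 1 apart between 16 L5 and 16 L4 cells, beside 33.1% of 6492 genes, with 23.3% higher and 9.80% lower. *Malat1* was lower in L5 by 0.71, with L5 at a median of 17121 CPM and L4 at 26586.5 CPM, and it was lower in 3 of 3 days (day values from -0.84 to -0.38, SD 0.26), as 27.7% of all genes had 1 sign in every day. *Snhg11* differed by 0.04, *Meg3* by -0.13, *Rian* by 0.20, *Miat* by 0.56 and *Mirg* by -0.73. None of the 4 low cells is in this comparison. The V1 L5 and S1 L5 cells stand in both an area and a layer comparison, and whether the layer difference of *Malat1* itself differs between V1 and S1 was not tested.

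**Figure D5:**
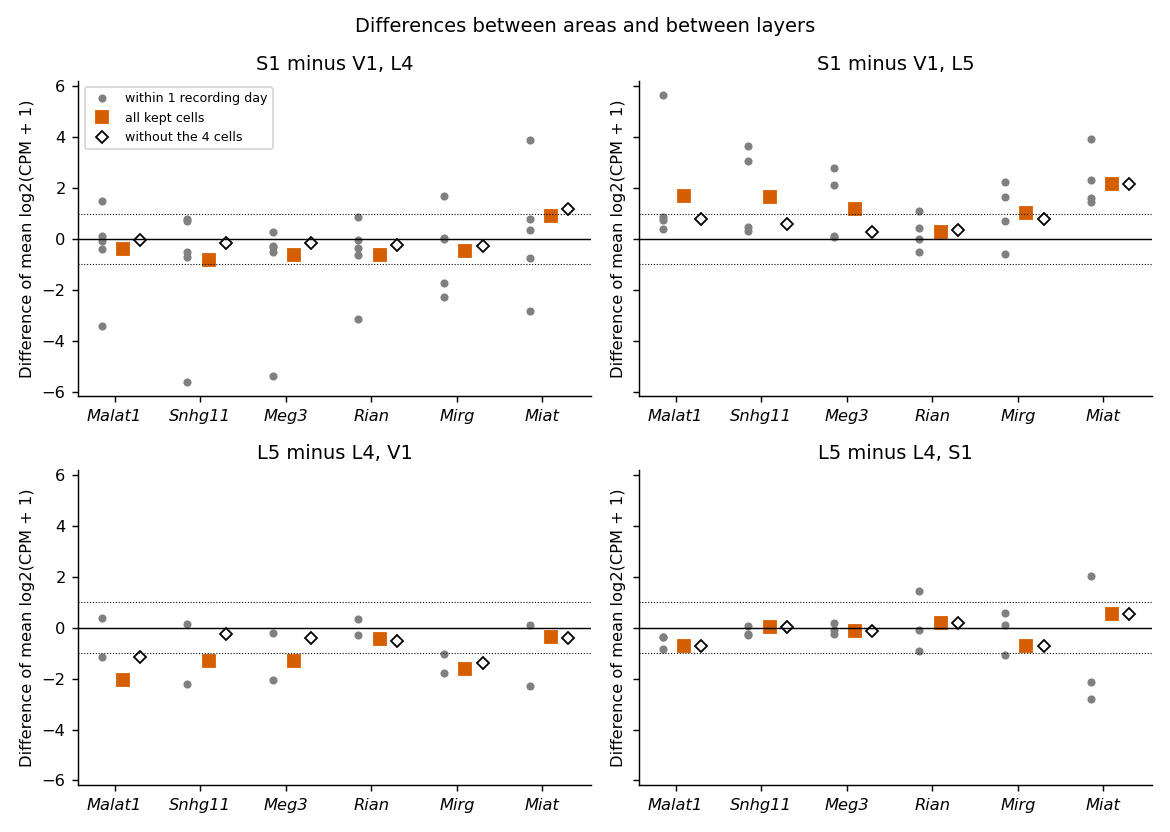
Each panel plots the difference of mean log2(CPM + 1) for the 6 RNAs in 1 comparison, with squares for all kept cells, open diamonds without the 4 low cells, grey points for single recording days with at least 2 cells of each group and dotted lines at -1 and 1. *Miat* in L5 lies above 1 in each of its 4 days, and in L5 and V1 the squares of *Malat1*, *Snhg11* and *Meg3* lie farther from 0 than their diamonds.

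The same gene lists were counted in these comparisons. In L5, 6 of 12 other long noncoding RNAs past the filter were at least 1 higher in S1 and 1 was lower (median 0.60), beside 23.6% of all genes higher and 642 of 6402 lower (median 0.24). Without the low cells 3 were higher and 2 lower (median 0.09), beside 17.8% and 13.8% of all genes (median 0.05). Of 26 ribosomal protein genes 1 was higher in S1 L5 and 6 were lower (median -0.50), and without the low cells 1 and 5 (median -0.40). In the V1 layer comparison, 5 of 19 speckle and splicing genes were at least 1 lower in L5 and 1 was higher (median -0.69), beside 15.6% of all genes lower and 22.3% higher (median 0.15). Without the low cells 2 were lower and 1 higher (median -0.04), beside 11.8% and 26.5% of all genes (median 0.31). Of 7 other snoRNA hosts 3 were lower in V1 L5 (median -0.91), and without the low cells 1 was lower and 1 higher (median -0.58). In L4, 3 of 19 speckle genes were lower in S1 (median -0.33), 1 without the low cells (median -0.23), and 0 of 38 ribosomal protein genes were past the size. Of all 9201 genes in L4, 7.66% were lower in S1 and 8.12% higher (median 0.01, and 0.11 without the low cells). The 3 measured oligodendrocyte genes were all higher in S1 L4 (median 2.11), and the 1 measured in L5 by 2.66. *Miat* had r = 0.10 with the summed oligodendrocyte list over the kept cells, *Meg3* -0.20 and *Malat1* -0.04. The part of these other transcripts in the differences was not tested.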

How the data were processed

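SOM+ cells of V1 and S1, L4 and L5, were measured by Patch-seq. The authors aligned single-end reads to mm10 with STAR 2.4.2a and deposited read counts per gene without normalization, and RPKM values, for which they used rpkmforgenes with gene models from RefSeq, per the methods and the submitters' processing notes. The 24490 entries gave 23998 symbols after entries of 1 symbol were summed. Areas and layers came from the labels, which name no animal, so each group is 1 sample and no p-value was computed. CPM is the count per 1000000 counts of the cell, and 1 was added before log2 was taken. A comparison holds the genes that reached 32 counts in 10 or more of its cells. Recording days with at least 2 cells of each group gave the SD over days, and correlations within a day needed at least 6 cells. The study's methods give fewer mice than there are label dates, so some days must come from 1 animal, although the SD was taken over days as if they were separate. RPKM was used to set levels of different genes side by side and as an alternative. No doublet caller was run, since each library came from 1 pipette.

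The members, the gene lists and the alternatives were chosen with earlier results of these data known. The genes named are the members, the Dlk1-Dio3 neighbourhood list, the 3 genes with the highest r to each member, and the 2 most abundant of every other list. *Snap25*, *Rn45s*, *Sst*, *Gad1* and *Kcnq1ot1* in the 4 low cells, and *Snap25* and *Rn45s* elsewhere, were chosen after their values were seen. The 4 low cells are those under 200 CPM of both *Meg3* and *Snhg11*, also chosen after seeing the data, and leaving them out is an alternative. Since no molecular identifiers were used, PCR copies of 1 molecule are counted as separate reads, and intervals (95% Clopper-Pearson) cover counting error only.

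The other alternatives were TMM scaling, RPKM, a pseudocount of 10, no filter on counts, thinning to 250000 reads (random seed 1), at least 3000 detected genes, medians, within-day means, Spearman's rho, each series and each recording day left out in turn. The functions were tested on simulated data. Positions are from GENCODE M21 and promoters and hairpins from RefSeq, both on GRCm38. TMM factors came from edgeR 4.0.16 in R 4.3.3. Everything else ran in Python 3.11.15 with SciPy 1.17.1, pandas 2.3.3 and NumPy 2.4.6, and plots were drawn by matplotlib 3.10.9.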

Additional observations from a re-analysis of the deposited data

Results flagged for a closer look

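Reads of the 6 RNAs were also counted in cells that the comparisons left out. In 4 cells with fewer than 1500 detected genes they took 0.679% of 356793 pooled counts, in single cells from 0.585 to 2.59%, and 2 of these cells had totals of 580 and 1378 counts. In 1 cell with more *Slc17a7* than *Gad1* plus *Gad2* counts they took 5.31% of 759764 counts, with *Malat1* at 28410 CPM, *Snhg11* at 13858, *Meg3* at 10345 and *Miat* at 342. In 4 cells without an *Sst* count, all labelled S1 L4, they took 3.10% of the pooled counts, from 1.94 to 5.95% per cell, with *Meg3* between 2431 and 9897 CPM and *Snhg11* between 6217 and 18070 CPM. A count of 0 would have allowed at most 0.000841% in the first of these sets. The labels put these cells in the same groups as the kept cells, and they were not compared with them.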

How the results depend on the processing

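The median share of counts and the median r of the 15 pairs stayed within 1 SD over recording days under every alternative run for them. The median r of the 6 RNAs with detected genes also did, but changed sign, from 0.08 to -0.34 without the 4 low cells and to -0.31 by Spearman's rho. With 1 choice changed at a time no difference past the size changed sign. With within-day means and without the low cells together, an alternative chosen after seeing the data, *Malat1* between V1 layers went from -2.04 to 0.013 and *Snhg11* from -1.33 to 0.30, and the number at least 1 apart was 1 in L5 and 0 between V1 layers. Of the 6 RNAs in L4, 0 were at least 1 apart between areas. This was 1 by medians, after thinning, with at least 3000 detected genes, without the 4 low cells and in series 1 alone, 2 by within-day means and 3 in series 2 alone, and without 1 recording day in turn 0 to 2 (2 without day 3). In L5 it was 4, and 1 by medians and 1 without the 4 low cells, and 2 to 4 without 1 day (2 without day 4). Between layers it was 3 in V1, and 1 by medians, 1 with at least 3000 genes, 1 without the 4 low cells and 1 to 4 without 1 day (4 without day 2, 1 without day 3). In S1 it was 0, and 1 by medians and 0 to 2 without 1 day (2 without day 4, 1 without day 3 or 5). With every gene that had at least 1 count, the percent of all genes at least 1 apart was 8.90 in L4 in place of 15.8, 21.1 in L5 in place of 33.6, 22.3 between V1 layers in place of 37.9 and 21.2 between S1 layers in place of 33.1, since that set adds genes with few counts. The main differences were not paired, and pairing by recording day was an alternative, as within-day means. By animal, no paired analysis was possible because the labels name none. Depth limits *Mirg* and *Miat* most, with 2437 and 7550 counts in all kept cells.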
